A study of Mus musculus with 23 samples.

Results

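Scml2, Hormad2, Usp26, Rps6ka6, Llgl1, Nbas and B3gntl1 were followed as genes on which sites of mutant CTCF fell far below sites of wild-type CTCF in embryonic stem cells (ESCs) or in neural progenitor cells (NPCs). They are 7 of 55413 annotated genes, and they were chosen by their ratio of mutant to wild-type sites, so that ratio is given here as a description. RNA bound by CTCF was profiled by iCLIP2 in mouse E14 cells whose own CTCF carries a degron. All cells of all groups received 1 µM 5-Ph-IAA and 1 µg/mL doxycycline for 24 hours, the first to degrade the endogenous protein and the second to switch on a Flag-Halo–tagged rescue CTCF. The rescue was wild type (CTCF-WT) or lacked part of its first zinc finger (CTCF-ΔZF1). The 6 groups were ESC-WT, ESC-ΔZF1 and non-cross-linked ESC (noXL), with 4 libraries each, and NPC-WT, NPC-ΔZF1 and NPC noXL, with 3, 4 and 4 libraries. NPCs had been differentiated for 2 days, and cross-linked cells received 400 mJ/cm2 of UV light at 254 nm. Each rescue line was 1 clone of the same degron parent, so a difference between clones and an effect of the mutation cannot be told apart. Both noXL groups were made from the CTCF-WT line.

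CTCF is a zinc finger protein that binds DNA, halts cohesin and so anchors chromatin loops, and several of its fingers also contact RNA. In iCLIP, UV light fuses the protein to the RNA base it touches, most readily a uridine, and reverse transcription stops at the remaining peptide, so the end of the cDNA marks the contact. Libraries made without UV show which RNA comes along without a fused bond. A call on an RNA therefore needs both the RNA and the contact: fewer contacts, less RNA per cell and fewer cells that make the RNA cannot be told apart in these lists.

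The values are nucleotides that PureCLIP called as cross-linked on the merged libraries of a group. There was 1 list per group, no replicate of any value and no test; ranges are 95% Wilson intervals, or are derived from them, and cover counting error only. The WT, ΔZF1 and noXL lists had 451137, 231636 and 158968 sites in ESCs and 239258, 158490 and 107227 in NPCs, from libraries of unknown read depth. The ESC markers Esrrb and Tfcp2l1 had 460 and 343 ESC-WT sites but 0 and 5 NPC-WT sites, while the neural markers Sox1, Pax6, Hes5 and Zic1 held 0 sites in NPC-WT and Nes held 28. Ctcf itself held 109, 68 and 40 sites in the ESC lists.

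The short stretches below carry the most CTCF-WT calls within 29 nucleotides on the strand of each gene, in the cell type in which it was picked; among stretches with equally many calls, the one with the highest summed score is shown. They show on what sequence the WT calls lay, and all but the B3gntl1 stretch had no ΔZF1 site in that cell type. Letters run 5′ to 3′ on the RNA strand of the mm10 genome with T for uridine, and capitals mark the nucleotides called in the WT list.
Scml2, 3′ UTR, chrX:161257258-161257286, plus strand, ESC-WT: ttttgatattTTTtaaacTgtaggctaga
Hormad2, coding exon 10, chr11:4408671-4408699, minus strand, ESC-WT: ccaccagaatgcTCgaTggggagaacagt
Usp26, 5′ UTR in exon 2, chrX:51801070-51801098, minus strand, ESC-WT: caccggggtgcccAGCctccattttgtct
Rps6ka6, coding exon 1, chrX:111486685-111486713, minus strand, NPC-WT: tgttgtcttccaTTtTTTggatgtcgtcg
Llgl1, coding exon 2, chr11:60702800-60702828, plus strand, NPC-WT: tCcccaatCagcccagcgccttggcctTc
Nbas, coding exon 38, chr12:13441870-13441898, plus strand, ESC-WT: ggaaagctTTgctgaagtgtTgctgagaa
B3gntl1, 5′ UTR in exon 1, chr11:121673118-121673146, minus strand, ESC-WT: tctGcaCcaatcggaagcggtccagtCtg

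In Scml2, Rps6ka6 and Nbas, every called base of the stretch was a uridine, 4, 5 and 3 of them, and neither the ΔZF1 list nor the noXL list of that cell type had a call there. The Usp26 stretch was of another kind. None of its 3 called bases was a uridine, and its central G was called in ESC-WT, ESC-noXL, NPC-WT and NPC-noXL, 149 nucleotides from the annotated start of the gene. It was the highest-scoring Usp26 site of ESC-WT (28.9) and of ESC-noXL (35.9). The B3gntl1 stretch at the start of the gene was also called outside WT, with 2 noXL sites and the only ESC-ΔZF1 site of the gene.

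The ratio behind the choice was the log2 ratio of ΔZF1 to WT sites on the strand of a gene, with 1 added to each count, minus the same ratio of all sites in genes. A gene needed 20 or more sites over the 2 lists combined to be compared, and a value of -1 or less counts as low. Where the ΔZF1 count is 0, the value depends on the 1 that was added and is no bound. In ESCs, 5.45% of 6518 genes were low, and 5 of the 7 genes were. In NPCs, 7.36% of 5274 genes were low, and so were 3 of the 4 genes with enough sites. These counts restate the choice, and nothing is read from them. The choice had no sharp limit: in ESCs Smoc1, with 21 WT and 0 ΔZF1 sites (-3.48), and Gpat2, with 34 and 1 (-3.15), stood just below Nbas and just above B3gntl1 without being among the 7 genes. Counted from the lowest ratio, Nbas and B3gntl1 were in places 11 and 12 in ESCs. Rps6ka6 and Llgl1 were in places 28 and 29 in NPCs. Further genes outside the set were lower than these. Without the scaling, 47.1% of genes in ESCs and 28.4% in NPCs were at -1 or below, since the ΔZF1 lists were shorter as a whole.

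**Figure D1:**
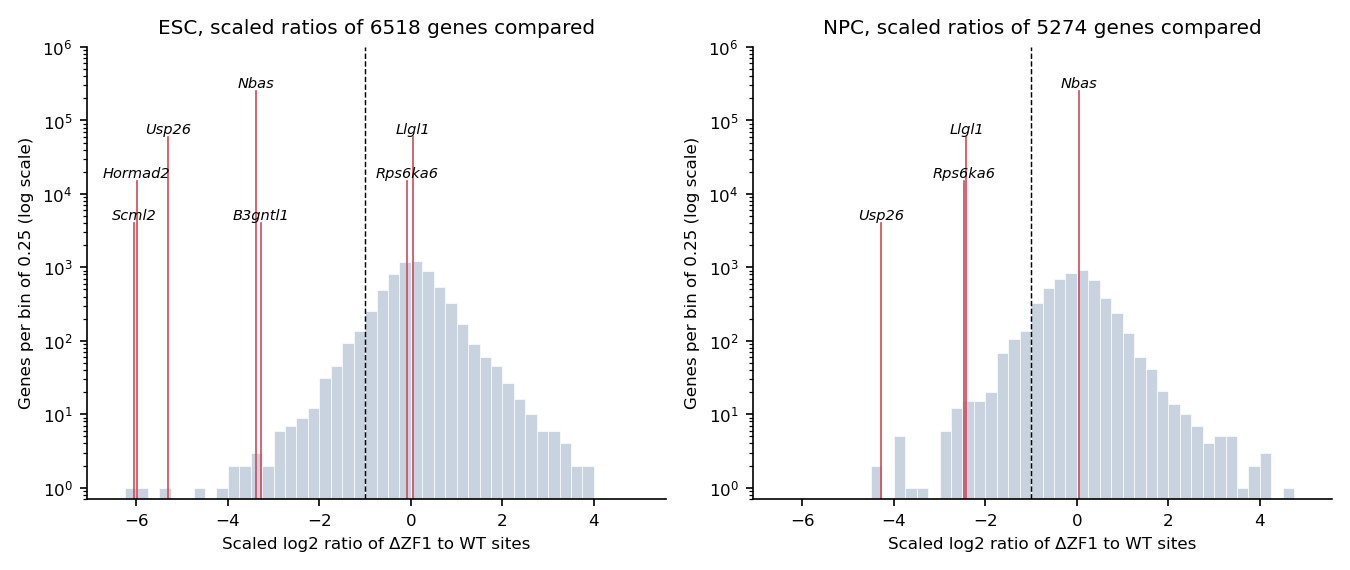
Scaled log2 ratio of ΔZF1 to WT sites (x axis) for all genes compared in ESCs (left, 6518 genes) and NPCs (right, 5274 genes), as the number of genes per bin on a log axis; red lines mark the chosen genes and the dashed line is at -1. Scml2, Hormad2 and Usp26 form the lowest end in ESCs, and Nbas moves from -3.38 in ESCs to 0.05 in NPCs.

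Scml2, Hormad2 and Usp26 had no ΔZF1 site at all in ESCs, which held for 0.138% of the genes compared, and they were the 3 lowest genes of that comparison. Scml2 encodes a Polycomb-associated protein of the germ line, Hormad2 a protein of meiotic chromosome axes and Usp26 a deubiquitinase best known from testis. With WT, ΔZF1 and noXL in this order, Scml2 held 129, 0 and 44 sites. Hormad2 held 124, 0 and 52, and Usp26 held 77, 0 and 25. Each of the 3 genes had more sites without UV in the WT line than with UV in the ΔZF1 line. A floor of 3 ΔZF1 sites was set, with the WT count taken as exact. Against it the ΔZF1 counts were 43.0-fold lower for Scml2, 41.3-fold for Hormad2 and 25.7-fold for Usp26. Scaled to all genic sites these values were between 13.0-fold, for Usp26, and 21.8-fold, for Scml2. The upper Wilson limits of the scaled log2 ratios, at -4.09, -4.03 and -3.35, are weaker bounds. Had the 3 genes followed the list as a whole, 65.5, 62.9 and 39.1 ΔZF1 sites would have been called.

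In NPCs, Scml2 and Hormad2 had few sites in any list, with 7, 2 and 2 on Scml2 and 10, 0 and 1 on Hormad2 in WT, ΔZF1 and noXL. They did not reach 20 sites and were not compared. Usp26 kept 28 sites in NPC-WT and 10 in NPC-noXL and again had none in NPC-ΔZF1. Against the same floor this was 9.33-fold lower, or 6.21-fold after scaling. The upper Wilson limit of its scaled log2 ratio in NPCs was -2.28. Only 7 genes, 0.133% of those compared in NPCs, had no ΔZF1 site. Both ΔZF1 sites of Scml2 were uridines in coding exon 4, 60.998 and 61.000 kb from the start of the gene, where NPC-WT had 3 sites between 60.876 and 61.015 kb.

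**Figure D2:**
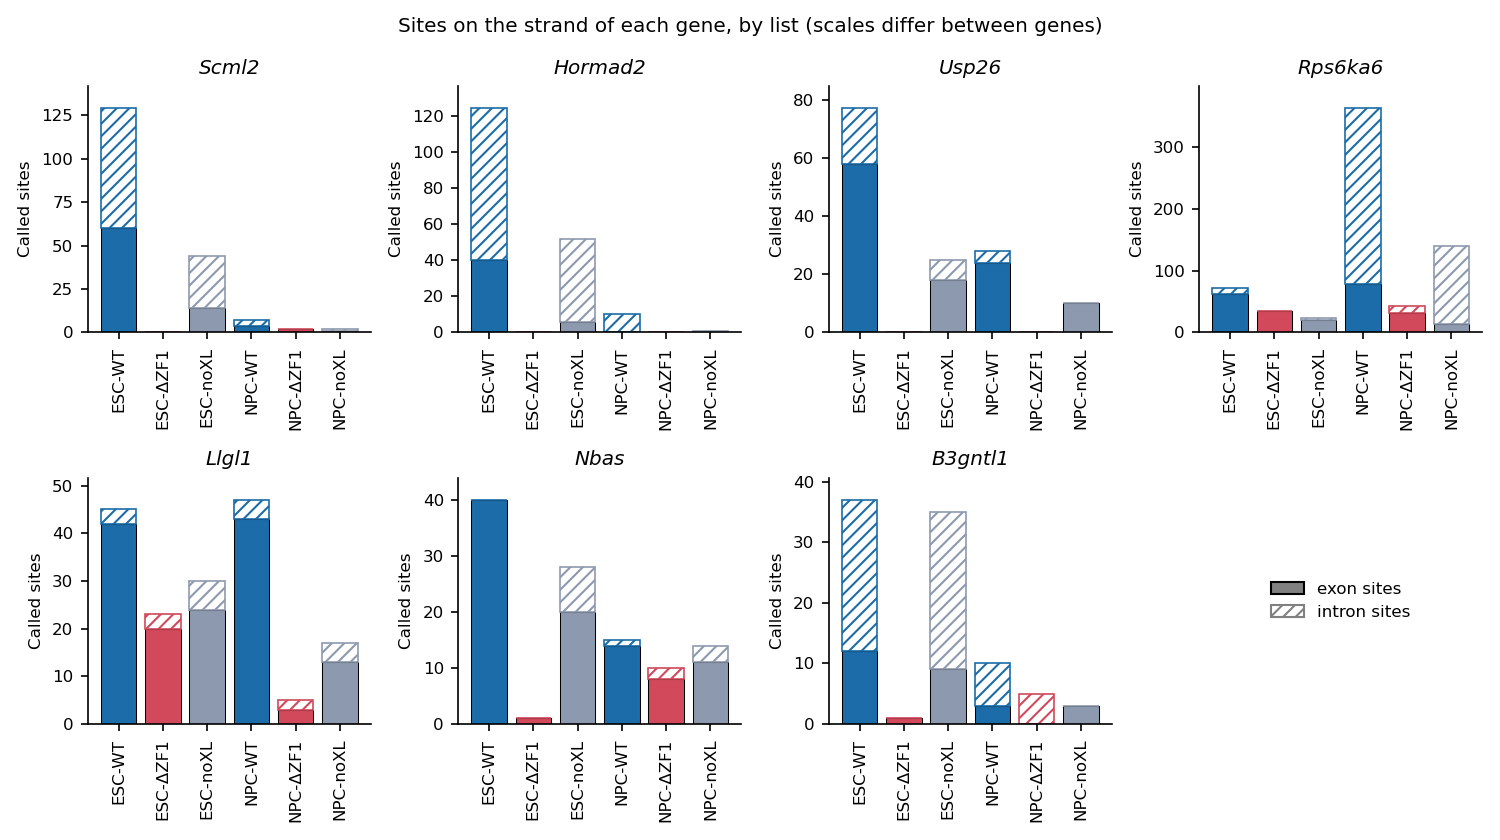
Called sites on the strand of each gene (y axis) in the 6 lists, with exon sites as filled and intron sites as hatched bars. The ΔZF1 bars of Scml2, Hormad2 and Usp26 are at 0 in ESCs beside 129, 124 and 77 WT sites, and the NPC-ΔZF1 bar of Rps6ka6 lacks most of the 285 intron sites of NPC-WT.

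The lost sites of Scml2 lay on the distal part of the gene (chrX:161117193-161258213, plus strand, 141 kb). No list had a site before 45.6 kb, where further transcript starts are annotated, and the first ESC-WT site was at 54.3 kb. The last 20% of the body held 95 of the 129 sites. Introns held 69 sites and exons 60, of which 36 were in coding exons and 22 in the 3′ UTR. Per length the exons were far denser, with 9.87 sites per kb against 0.511 in introns. The intron sites were bunched: intron 19, of 3.13 kb, held 36 and intron 20, of 2.78 kb, held 16. Intron 10, of 1.855 kb, held 11. Without UV introns 19 and 20 had 12 and 5 of the 30 intron sites, whereas intron 10 had 0 and intron 7, with 1 WT site, had 5. Of the 26 exons of the transcript with the longest coding sequence, 17 held an ESC-WT site. Exons 12 to 18, each of 84 nucleotides, and introns 12 to 18 had 0 sites in every list, with or without UV. Whether reads from these exons and introns could be placed uniquely was not tested.

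Hormad2 (chr11:4345814-4441105, minus strand, 95.3 kb) had its sites near the start. The first 40% of the body held 107 of 124 ESC-WT sites, and also 40 of 52 noXL sites. Introns held 84 of the WT sites, led by intron 7 with 37 and intron 5 with 27. Of the 40 exon sites, 23 were in coding exons, 12 in the 5′ UTR and 4 in the 3′ UTR. Exons took 32.3% of the WT sites (24.7% to 40.9%) and 11.5% of the noXL sites (5.40% to 23.0%). All 10 NPC-WT sites of Hormad2 were in introns 5 and 7.

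Usp26 (chrX:51753959-51801233, minus strand, 47.3 kb) has a last exon, number 9, of 3515 nucleotides, out of 4.13 kb of exon sequence in all. That exon held 38 of 77 ESC-WT sites, 14 of 25 noXL sites and 16 of 28 NPC-WT sites. The first 20% of the body held another 35 ESC-WT sites, and the 5′ UTR was the densest part with 31.7 sites per kb. Exons took 75.3% of ESC-WT sites (64.6% to 83.6%) and 85.7% of NPC-WT sites (68.5% to 94.3%). Sites did not stop at the annotated end. Within the first 2.80 kb beyond it, on the same strand and in no annotated gene, lay 30 ESC-WT sites, 11 ESC-noXL sites, 4 NPC-WT sites, and 0 sites of NPC-noXL and of either ΔZF1 list.

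**Figure D3:**
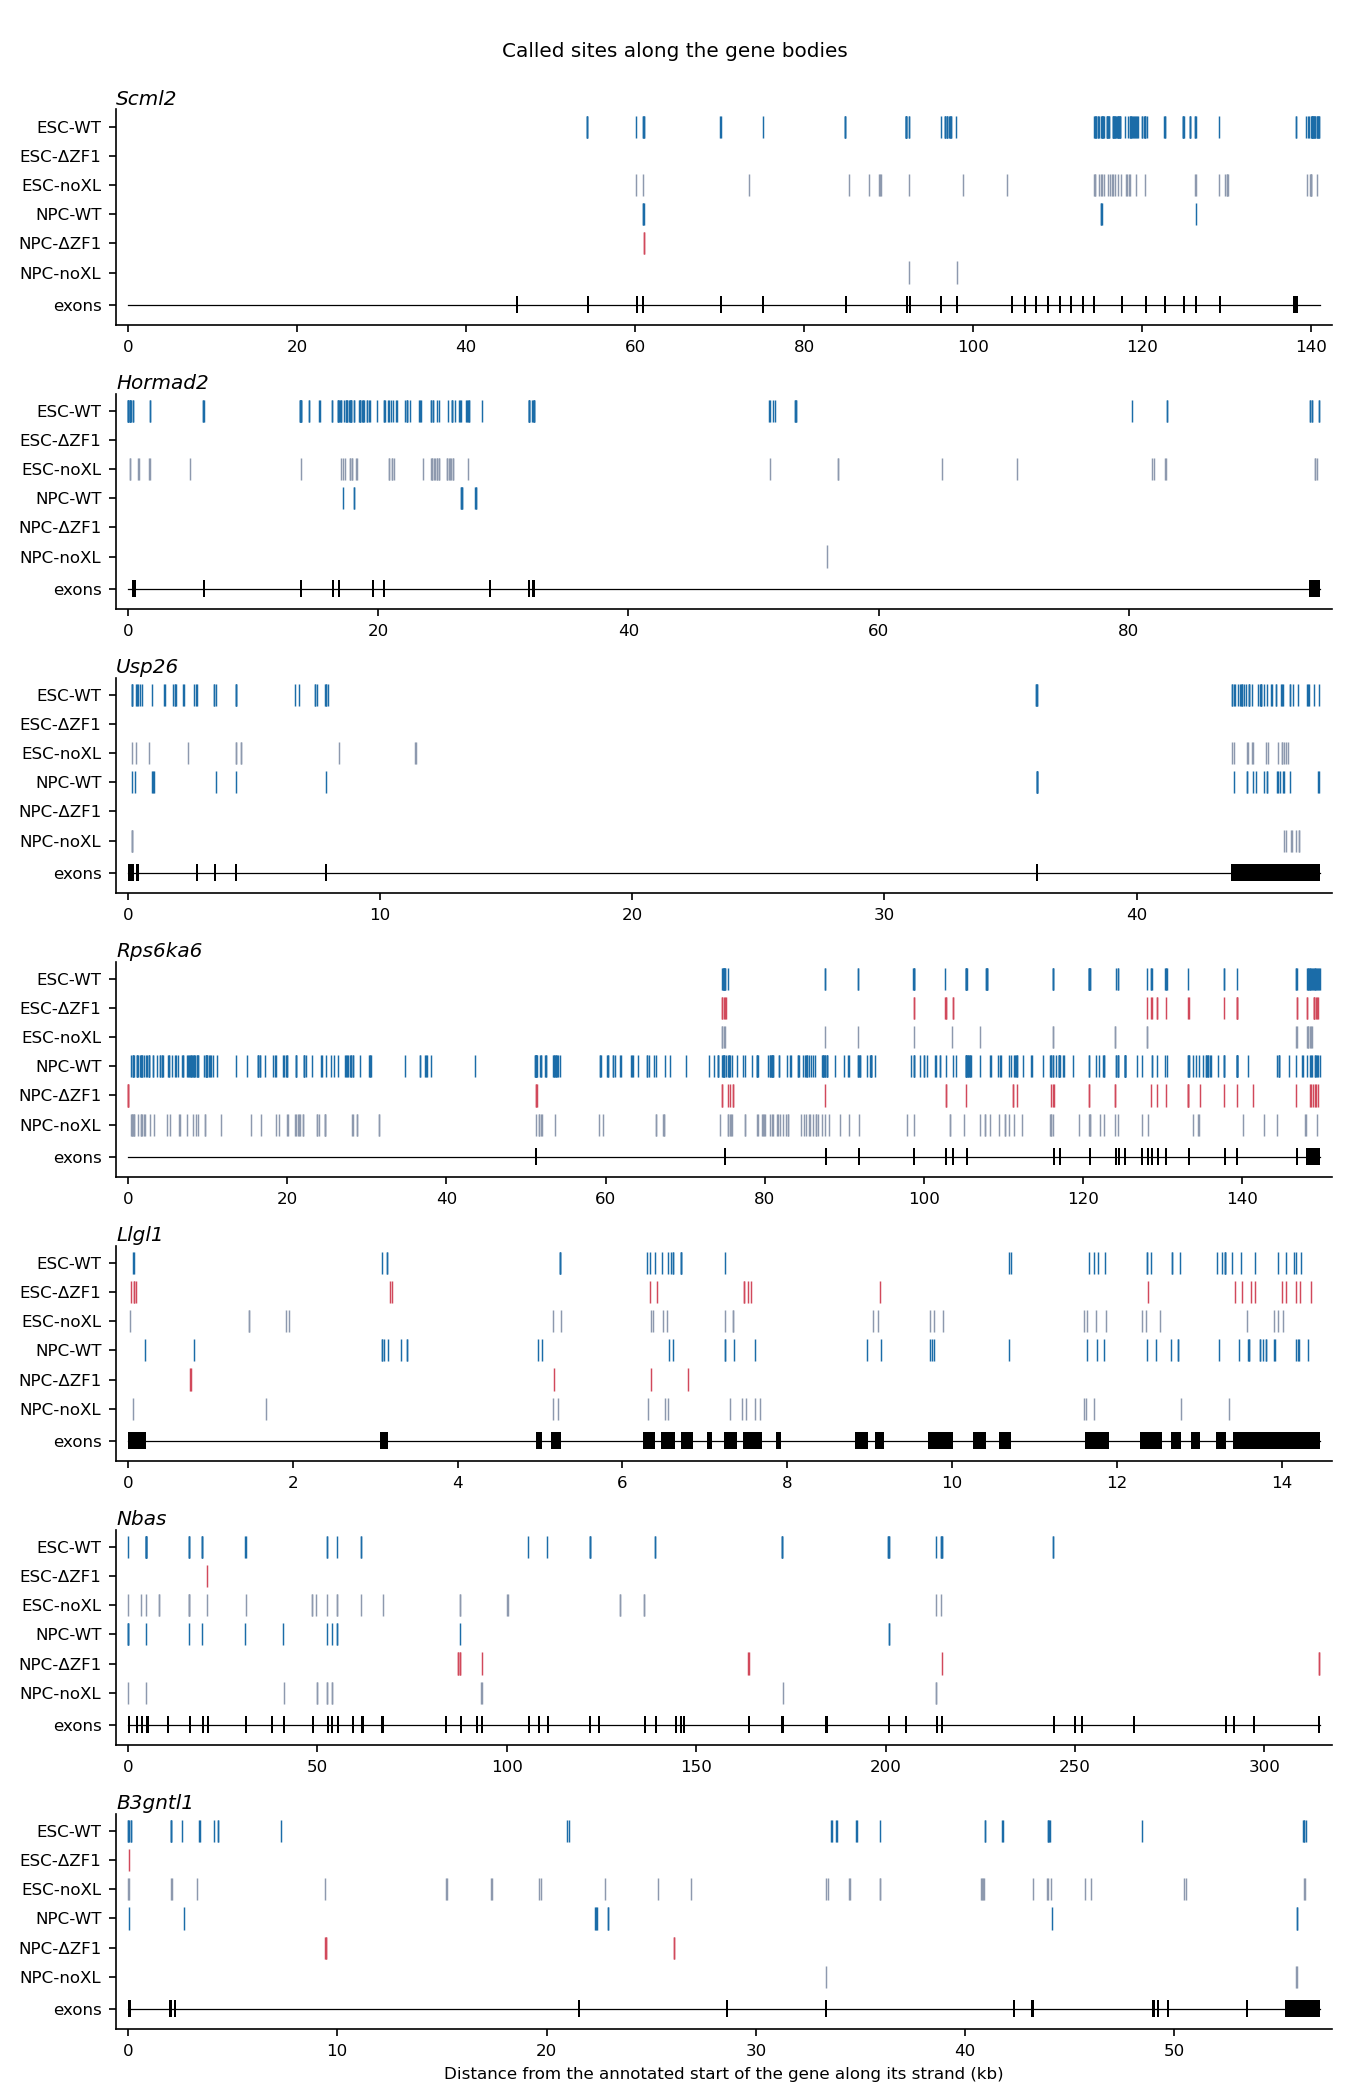
Each tick is 1 called site, placed by its distance in kb from the annotated start of the gene along its strand (x axis), with 1 row per list and the exons of the transcript with the longest coding sequence below. In Scml2 all sites lie beyond 45.6 kb, and in Rps6ka6 the first 51.2 kb hold 117 NPC-WT sites and 0 ESC sites.

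Rps6ka6 encodes RSK4, a kinase of the ribosomal S6 kinase family that acts downstream of ERK. It lies at chrX:111388192-111537959 on the minus strand and spans 150 kb. ESCs gave 72 WT, 34 ΔZF1 and 23 noXL sites on it, and NPCs gave 363, 43 and 140. The NPC-WT count was 8.44 times the ΔZF1 count (6.16 to 11.6), and the scaled ratio was -2.46 (-2.94 to -2.04), in place 28 of the genes compared. In ESCs the scaled ratio was -0.08 (-0.69 to 0.48), so the ΔZF1 count followed the list as a whole.

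What NPC-ΔZF1 lacked on Rps6ka6 was mainly intron sites. Its introns carried 285 WT, 11 ΔZF1 and 127 noXL sites, while its exons carried 78, 32 and 13. Relative to all intronic sites, the ratio of its introns was -4.54 (-5.52 to -3.81). Relative to all exonic sites, the ratio of its exons was -0.40 (-1.01 to 0.17), which is not low and which takes the gene out of the low genes of NPCs when exons alone are counted. Exons made up 21.5% of the NPC-WT sites (17.6% to 26.0%) and 74.4% of the NPC-ΔZF1 sites (59.8% to 85.1%), where all genic sites of these lists were exonic at 73.1% and 60.4%. The 2 intervals do not overlap, although both come from the contrast that picked the gene.

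The ESC lists of Rps6ka6 had the exon pattern with either protein. Exons held 63 of 72 sites in ESC-WT (87.5%, 77.9% to 93.3%), 34 of 34 in ESC-ΔZF1 and 20 of 23 in ESC-noXL. Per kb of intron, NPC-WT had 1.97 sites and ESC-WT 0.0622, against 15.6 and 12.6 per kb of exon. The sites of NPC-WT were spread over 23 of the 24 exons of the transcript with the longest coding sequence, and those of NPC-ΔZF1 over 15.

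The stretch covered also differed between the cell types. Annotated transcripts of Rps6ka6 start at the beginning of the gene and up to 6.78 kb from it, at 51.2 kb, and at 74.5 kb and beyond. No ESC list had a site before 74.5 kb, and the first site of ESC-WT and of ESC-ΔZF1 was the same uridine at 74.6 kb. NPC-WT had 117 sites in the first 51.2 kb, 50 from there to 74.5 kb and 196 beyond. NPC-ΔZF1 had 3, 3 and 37, and NPC-noXL 50, 14 and 76. The WT count was 39.0 times the ΔZF1 count in the first stretch (13.1 to 116), 16.7 times in the middle one (5.51 to 50.4) and 5.30 times in the last (3.73 to 7.51). Of the 117 WT sites in the first stretch, 114 were in introns, and the middle and last stretches had 44 and 127 WT intron sites. Introns held 0, 1 and 10 of the ΔZF1 sites, in the same order. The interval of the middle stretch overlaps both others, and the ratios come from the contrast that picked the gene. Whether position along the gene matters apart from exon or intron was not tested. Relative to ESCs, the gene had more sites in NPCs both with UV, by a scaled log2 ratio of 3.22 in the WT lists, and without UV, by 3.12 in the noXL lists.

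Llgl1 encodes a basolateral polarity scaffold, the relative of fly lethal giant larvae. It is the shortest gene of the set (chr11:60699723-60714186, plus strand, 14.5 kb). ESCs gave 45 WT, 23 ΔZF1 and 30 noXL sites, and NPCs gave 47, 5 and 17. The scaled ratio was 0.04 in ESCs (-0.71 to 0.73) and -2.41 in NPCs (-3.93 to -1.36), a 9.40-fold lower count in NPC-ΔZF1 before scaling (3.85 to 22.9). Nearly all its sites were in exons, 42 of 45 in ESC-WT and 43 of 47 in NPC-WT, and 15 of the 22 exons held an NPC-WT site. The NPC-WT sites were 29 in coding exons, 14 in the 3′ UTR and 4 in introns. The last 40% of Llgl1, picked after its values were seen, held 30 NPC-WT sites and 0 NPC-ΔZF1 sites, whereas in ESC-ΔZF1 they held 11. None of the 5 NPC-ΔZF1 sites lay within 5 nucleotides of an NPC-WT site.

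Nbas encodes a subunit of a tether for vesicles that return from the Golgi to the endoplasmic reticulum, with a further part in nonsense-mediated decay. It is the longest of the genes (chr12:13269133-13583811, plus strand, 315 kb). The gene had 40 WT, 1 ΔZF1 and 28 noXL sites in ESCs, which is a ratio of WT to ΔZF1 of 40.0 (6.94 to 231), and 15, 10 and 14 in NPCs. The scaled ratio was -3.38 in ESCs (-6.87 to -1.82) and 0.05 in NPCs (-1.12 to 1.13). All 40 ESC-WT sites were in exons, which are 3.02% of the body: 39 in coding exons and 1 in the 5′ UTR. They were spread over 17 of 52 exons with at most 5 in any of them. In NPCs the first 20% of the body, a stretch likewise picked on its values, held 12 of 15 WT sites and 0 of 10 ΔZF1 sites, which began at 87.1 kb. The first 50% held 13 and 5, and both lists had sites in coding exon 23.

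B3gntl1 encodes a glycosyltransferase-like protein (chr11:121616197-121673153, minus strand, 57.0 kb). In ESCs there were 37 WT, 1 ΔZF1 and 35 noXL sites, with 37.0 WT sites per ΔZF1 site (6.41 to 214) and a scaled ratio of -3.27 (-6.76 to -1.70). In NPCs it had 10, 5 and 3 sites and was not compared. Introns held 25 of the 37 ESC-WT sites and 26 of the 35 ESC-noXL sites, so that the parts and the raw counts were alike. The noXL list was shorter as a whole, and the log2 ratio of WT to noXL sites scaled to all genic sites was -1.43. The first 10% of the body held 14 of the WT sites. The single ΔZF1 site was a C in the 5′ UTR, 33 nucleotides from the start, and the same nucleotide was called in ESC-WT and in ESC-noXL.

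The genes were also read site by site. This measure follows from the choice wherever a gene has few or no ΔZF1 sites, and nothing is read from it. A WT site was taken as lost where the ΔZF1 list of the cell type had no site within 5 nucleotides. Together the 7 genes lost 512 of 524 WT sites in ESCs (97.7%) and 470 of 480 in NPCs (97.9%). Of all genic WT sites, 84.9% were lost by the same measure in ESCs and 89.2% in NPCs. In ESCs, 5 of the 7 genes kept none or 1 of their sites, while Rps6ka6 kept 7 of 72 and Llgl1 4 of 45. In NPCs the only gene to keep any was Rps6ka6, with 10 of 363, of which 9 were in exons. Seen from the mutant lists, 9 of the 43 NPC-ΔZF1 sites of Rps6ka6 lay within 5 nucleotides of a WT site, and in ESCs 6 of 34 on Rps6ka6 and 5 of 23 on Llgl1 did.

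The base called separates sites with UV from sites without, and was not used to choose the genes. Of the 524 ESC-WT sites on the 7 genes, 62.8% were uridines, and of the 237 ESC-noXL sites 34.2% were. For all genic sites these shares were 60.6% and 28.3%. In NPCs they were 70.2% of 480 WT sites and 26.2% of 187 noXL sites, against 64.6% and 27.9% of all genic sites. On Scml2 the share was 68.2% in ESC-WT (59.8% to 75.6%) and 31.8% in ESC-noXL (20.0% to 46.6%), and on Rps6ka6 72.2% in NPC-WT (67.4% to 76.5%) and 28.6% in NPC-noXL (21.7% to 36.5%). In ESCs the WT and noXL intervals were separate for Scml2, Hormad2 and Rps6ka6 and overlapped for the other 4 genes. On Nbas the shares were 42.5% (28.5% to 57.8%) in WT and 28.6% (15.3% to 47.1%) in noXL, and on Llgl1 53.3% (39.1% to 67.1%) and 26.7% (14.2% to 44.4%). On B3gntl1 they were 56.8% (40.9% to 71.3%) and 40.0% (25.6% to 56.4%), and on Usp26 59.7% (48.6% to 70.0%) and 32.0% (17.2% to 51.6%). In NPCs the intervals were separate for Usp26, at 71.4% (52.9% to 84.7%) in WT and 10.0% (1.79% to 40.4%) in noXL, and for Llgl1, at 63.8% (49.5% to 76.0%) and 23.5% (9.55% to 47.3%). They overlapped for Nbas in NPCs, at 53.3% (30.1% to 75.2%) in WT and 28.6% (11.7% to 54.6%) in noXL. Scml2, Hormad2 and B3gntl1 had fewer than 5 NPC-noXL sites.

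**Figure D4:**
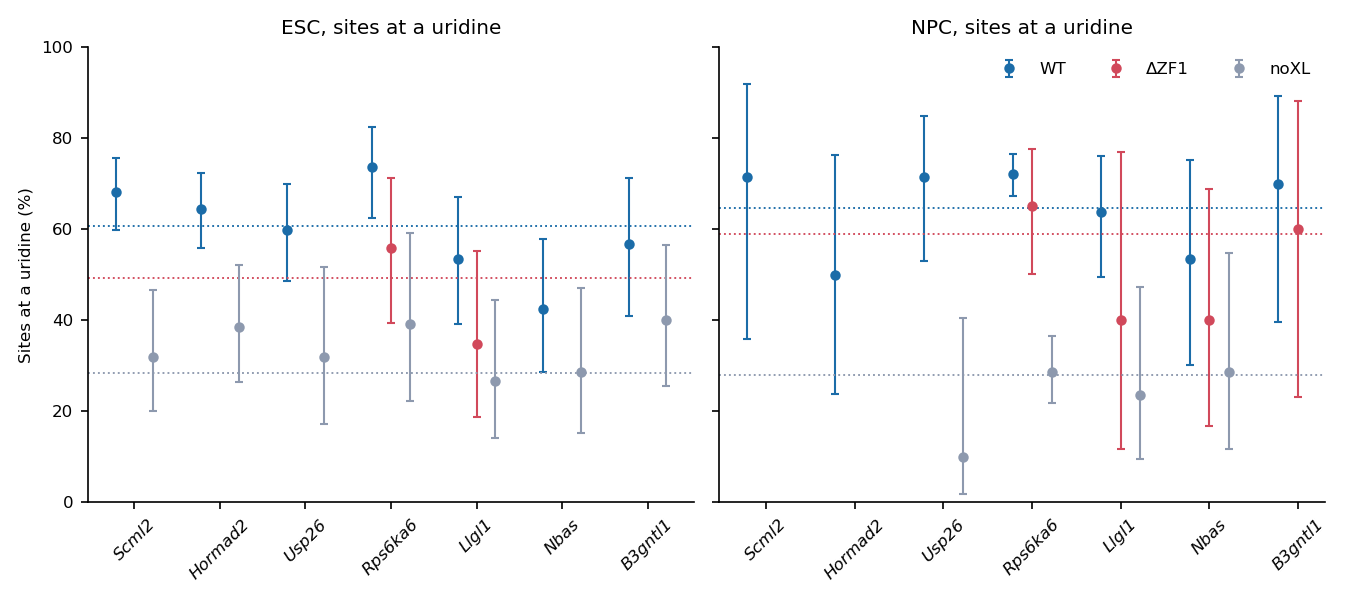
Share of called sites at a uridine (y axis, %) for each gene with at least 5 sites in a list, with 95% Wilson intervals as bars and the share over all genic sites of each list as dotted lines. WT sites lie above noXL sites on each gene where both are shown, with separate intervals in ESCs for Scml2, Hormad2 and Rps6ka6 and overlapping ones for Usp26, Llgl1, Nbas and B3gntl1.

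The ΔZF1 sites that were left on Rps6ka6 were uridines at 55.9% in ESCs (39.5% to 71.1%) and 65.1% in NPCs (50.2% to 77.6%). Those on Llgl1 in ESCs were uridines at 34.8% (18.8% to 55.1%). For all genic ΔZF1 sites the shares were 49.2% and 59.0%.

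The noXL lists show how many sites the same genes gave without UV. The log2 ratio of WT to noXL sites, scaled to all genic sites, had a median of 0.02 over 6208 genes in ESCs, of which 8.12% reached 1. None of the 7 genes did. Scml2 was at 0.02 (-0.45 to 0.53), Hormad2 at -0.27 (-0.72 to 0.21), Usp26 at 0.08 (-0.53 to 0.76) and Rps6ka6 at 0.10 (-0.53 to 0.81). Llgl1 (-0.94, -1.58 to -0.26), Nbas (-1.01, -1.68 to -0.30) and B3gntl1 (-1.43, -2.09 to -0.77) lay below 0 beyond counting error, and 7.38%, 6.43% and 3.06% of genes were lower than they were. In NPCs, where 10.5% of 4765 genes reached 1, Usp26, Rps6ka6 and Llgl1 were between 0.19 and 0.24, and Nbas was at -1.08 (-2.10 to -0.05). The noXL sites were seldom at the same nucleotides: 7.25% of the ESC-WT sites on the 7 genes and 4.17% of the NPC-WT sites had a noXL site of the cell type within 5 nucleotides, beside 7.67% and 5.64% of all genic WT sites.

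Pooled over the genes, scores lay near the middle of their lists. PureCLIP gives each site a score whose size grows with depth, so scores were ranked within their list. The median rank of the WT sites on the 7 genes was the percentile 43.1 in ESCs and 47.2 in NPCs. By gene it ran from 36.6 on Usp26 to 59.5 on Rps6ka6 in ESCs. In NPCs it ran from 29.5 on Usp26 to 63.8 on Scml2, which had 7 sites, and Rps6ka6 gave 363 of the 480 sites. The highest scores were 30.5 in ESC-WT, on a C of the Nbas 5′ UTR 3 nucleotides from the start, and 53.4 in NPC-WT, on a uridine in coding exon 12 of Rps6ka6, where the list maximum was 708. That C of Nbas was called in ESC-noXL and NPC-WT as well. The 10 sites that Rps6ka6 kept in NPCs ranked higher than those it lost, with median percentiles of 94.8 and 47.2. In ESCs the order was the other way, at 33.6 for the 7 kept sites and 60.0 for the lost ones.

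Position in introns and repeats was also read. The median distance of lost intron sites to the nearest exon edge was 750 nucleotides in Scml2, 1049 in Hormad2 and 512 in Usp26 in ESCs, and 2222 in Rps6ka6 in NPCs. Of the 285 NPC-WT intron sites of Rps6ka6, 67 were in sequence that the genome marks as repeats, and of its 127 noXL intron sites 32 were, where 26.2% and 27.7% of all genic intron sites of these lists were. Scml2 had 21 of 69 ESC-WT intron sites in repeats and Hormad2 21 of 84, where 31.0% of all genic intron sites of that list were. Joining sites within 8 nucleotides left 113 groups from 129 sites on Scml2, 103 from 124 on Hormad2, 62 from 77 on Usp26 and 34 from 45 on Llgl1 in ESC-WT, and 314 from 363 on Rps6ka6 and 37 from 47 on Llgl1 in NPC-WT.

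The other strand held few sites. Antisense sites were seen only on Nbas, with 4 WT, 2 ΔZF1 and 1 noXL site in ESCs and the same 3 counts in NPCs, and on B3gntl1, with 1, 0 and 0 in ESCs and 2, 3 and 0 in NPCs. Within 10 kb on either side Scml2 had no site of any list on either strand. Beyond Llgl1, 19 NPC-WT, 2 NPC-ΔZF1 and 8 NPC-noXL sites lay on the opposite strand, and beyond B3gntl1 10 ESC-WT, 0 ESC-ΔZF1 and 3 ESC-noXL sites did.

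No compared neighbour on the X chromosome or on chromosome 12 was low. The neighbours of Scml2 with enough sites were Phka2 and Pdha1 in ESCs, at -0.44 and -0.98, with gaps of 518 kb and 979 kb, and Map3k15 was compared only in NPCs, at 0.31. Around Usp26, Gpc4, Gpc3 and Rap2c were between -0.19 and -0.05 in ESCs, and in NPCs Gpc4, Gpc3, Kis2 and Mbnl3 were at 0.82, 0.59, -0.24 and -0.66. Near Rps6ka6 only Hdx had enough sites, at 0.06 in NPCs. Beside Nbas, Ddx1 was at 0.08 with 81 WT and 43 ΔZF1 sites in ESCs, at a gap of 19.9 kb, and Mycn at 0.98.

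On chromosome 11, which carries Hormad2, Llgl1 and B3gntl1, 20.3% of the genes compared in ESCs and 22.0% of those in NPCs were low, with a median scaled ratio of -0.47 over 607 genes in ESCs and -0.61 over 501 genes in NPCs. The medians of the X chromosome were -0.01 and 0.01. Of the neighbours of Hormad2, Mtmr3 held 122 ESC-WT, 11 ESC-ΔZF1 and 94 ESC-noXL sites and was at -2.38, and Ascc2 was at -2.14 with 51, 5 and 31. Uqcr10, Castor1, Sf3a1 and Pes1 were between -0.76 and 0.24. Around Llgl1, Alkbh5, Drg2, Gid4, Mief2, Top3a and Smcr8 were between -1.26 and -0.09 in ESCs. In NPCs, Flii, which overlaps the end of Llgl1 on the opposite strand, was at -1.55, and Top3a and Smcr8, beyond the end of Llgl1, were at -1.34 and -1.20, while Alkbh5, Drg2 and Gid4 on its other side were between -0.24 and 0.38. Tbcd, which overlaps B3gntl1 on the opposite strand, was at -1.79 in ESCs with 67 WT and 9 ΔZF1 sites, and Wdr45b, Foxk2 and Tex19.1 were between -0.56 and -0.22. The part of chromosome 11 as a whole in these ratios was not tested; relative to its median, Hormad2 was at -5.52 and B3gntl1 at -2.80 in ESCs, and Llgl1 at -1.81 in NPCs.

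**Figure D5:**
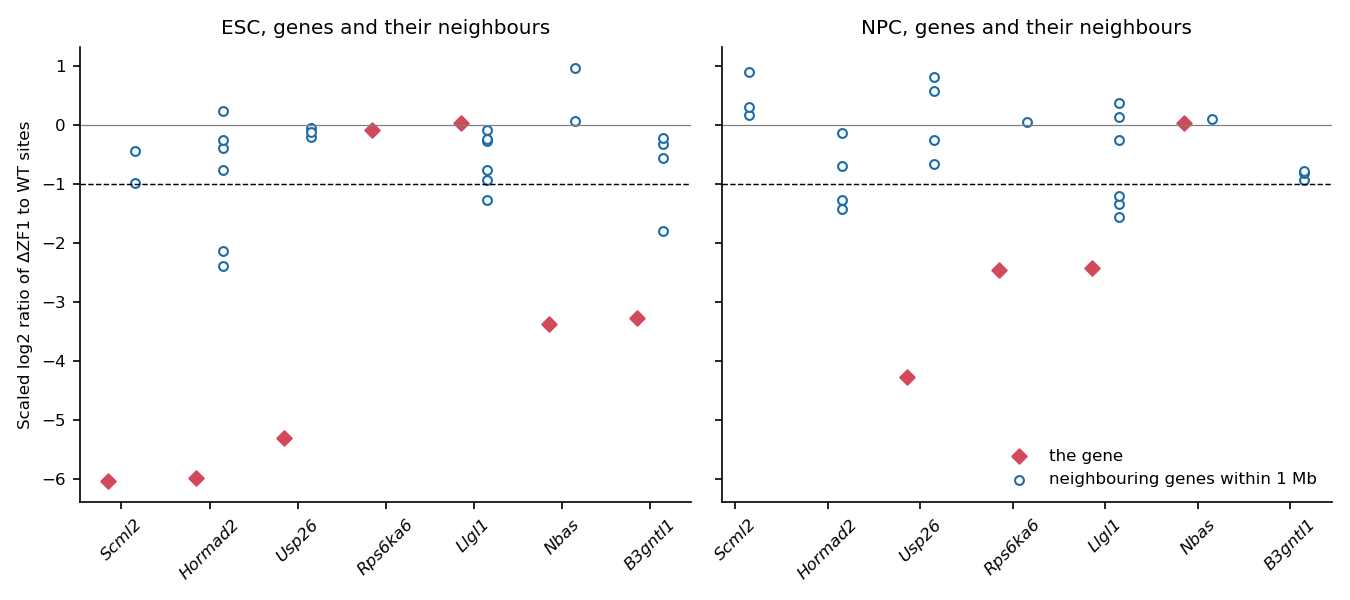
Scaled log2 ratio of ΔZF1 to WT sites (y axis) of each gene (red diamonds) and of its neighbouring genes within 1 Mb that had enough sites (open circles), in ESCs (left) and NPCs (right); the dashed line is at -1. In ESCs, Hormad2 has 2 neighbours below -2, and the neighbours of Usp26 lie between -0.19 and -0.05.

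Relatives of the genes were listed by family and pathway. Of 62 other germ line and meiosis genes, 33 had no WT or ΔZF1 site in ESCs, and 8 had enough to be compared in ESCs. Of these, 4 were low, Nxf3, Dazl, Rnf17 and, at -1.015, Tex14, beside 5.45% of all genes. The median over the 8 was -0.66, beside 0.04 over all genes. The 3 lowest were Nxf3, an X-linked relative of the mRNA export receptor, with 44, 0 and 11 sites in WT, ΔZF1 and noXL (-4.51), Dazl, a germ cell translation factor, with 45, 4 and 3 (-2.22), and Rnf17, a Tudor domain protein of spermatids, with 114, 15 and 47 (-1.87). The 3 highest were Stag3, a meiotic cohesin subunit, at 0.14, Ccnb1ip1, a crossover factor, at 0.02 and Trip13, which remodels HORMA domain proteins, at -0.22. In NPCs 3 of the 62 were compared and none was low, with a median of 0.09.

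Each of the following counts is to be read against 5.45% low over all genes in ESCs and 7.36% in NPCs. Of 12 genes listed as relatives of Scml2, most of them with MBT domains, 3 were compared in each cell type. Sfmbt2 was low in both cell types, at -1.83 and -1.50, while Mbtd1 was at -0.78 and -0.41 and L3mbtl2 at 0.66 and -0.61. Of the components of the Polycomb complex PRC1, 0 of 10 compared in ESCs were low, with ratios from -0.34 to 1.37 and a median of 0.47, and 0 of 12 in NPCs, from -0.84 to 1.07 with a median of 0.29. At the shares over all genes, fewer than 1 low gene would fall in a list of this length. Of the deubiquitinases of the USP family, 3 of 26 were low in ESCs, Usp16 at -2.57, Usp32 at -1.71 and Usp34 at -1.14. In NPCs 3 of 25 were low, Usp32 at -2.09, Usp33 at -1.73 and Usp19 at -1.58. Medians over the family were 0.06 in both cell types. Of the genes named as low in ESCs in these lists, Usp32, Usp34, Tex14, Rps6kb1 and Smg6 lie on chromosome 11.

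For the kinases around Rps6ka6, 1 of 11 was low in ESCs, Rps6kb1 at -1.19, where the highest was at 0.76, and 0 of 12 in NPCs, from -0.63 to 1.32. Its closest relatives Rps6ka1, Rps6ka2 and Rps6ka3 were at 0.15, 1.32 and -0.07 in NPCs. Polarity genes gave 0 of 7 low in ESCs, from -0.18 to 2.48, and 0 of 9 in NPCs, from -0.55 to 0.83, and Llgl2, the paralog of Llgl1, was at -0.18 and -0.55. Of the tether and decay genes that go with Nbas, 1 of 13 was low in ESCs, Smg6 at -1.23, where the highest was at 1.05, and 1 of 12 in NPCs, the tether subunit Zw10 at -1.53, where the highest was at 0.70. Of glycosyltransferase genes related to B3gntl1, 0 of 7 were low in ESCs, from -0.50 to 1.09, and 0 of 5 in NPCs, where the lowest was B3galnt2 at -0.998 and the highest was at 0.63.

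Likeness of counts was measured by the distance between log2 counts scaled to list size, over the 6 lists. These include the WT and ΔZF1 counts that chose the genes. Genes with few ΔZF1 sites therefore lie near each other by construction, and nothing is read from their nearness. Among 6046 genes with at least 50 sites in all, those most like Scml2 were Hormad2, B3gntl1 and Dhx40. The nearest to Hormad2 were Scml2, Nxf3 and Usp26, and to Usp26 Kif3a, Mink1 and Nxf3. For Rps6ka6, Acsl4 was the nearest, with 225 sites in NPC-WT and 87 in NPC-ΔZF1. For Llgl1 they were Sept9, Neurl4 and Serinc3, for Nbas Zbtb10, Sept8 and Tbc1d31, and for B3gntl1 Phka1, Dhx40 and Atrn. Distances ran from 0.90, between Llgl1 and Sept9, to 3.09, between Hormad2 and Usp26.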

How the data were processed

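Libraries were demultiplexed with Flexbar, aligned to mm10 with STAR, freed of PCR duplicates with UMI-tools, merged by group and called with PureCLIP by the authors. Each deposited interval spans 1 nucleotide and carries a PureCLIP score that the authors did not scale to depth. Groups were taken from the sample labels.

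Autosomal, X and Y sites were assigned to genes of GENCODE M21 by position and strand, with 1-based positions, and the base was read from GRCm38, the same build as mm10. A site in an exon of any transcript counted as exonic, in the order coding exon, 3′ UTR, 5′ UTR, noncoding exon and intron. Neighbours were up to 3 genes on each side, and overlapping genes, within 1 Mb with at least 20 sites. The naming rule was every compared gene for families of up to 12 and the 3 lowest and 3 highest for larger ones; to keep the text short, most families are given by their counts, their ranges or medians, their low genes and the relatives closest to a member. The members and gene lists were chosen with earlier results of these data known. No test was run, because there was 1 pooled list per group. Calculations were tested on simulated data. Software was pandas 2.3.3, numpy 2.4.6, pysam 0.24.0 and Python 3.11.15.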

Additional observations from a re-analysis of the deposited data

Results flagged for a closer look

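Nbas and Llgl1 gave opposite pictures in the 2 cell types under the same contrast of ΔZF1 with WT. Nbas had a scaled log2 ratio of -3.38 in ESCs and 0.05 in NPCs. Llgl1 had 0.04 in ESCs and -2.41 in NPCs. Each difference was not tested, because each cell type had 1 pooled list per protein, and both genes were picked for the cell type in which they were low. In NPCs the Nbas ratio rests on 15 WT and 10 ΔZF1 sites.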

How the results depend on the processing

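The number of low genes was recomputed under 12 alternatives in each cell type, and the individual ratios with it. Keeping sites with scores at or above the median of all lists left 3 low genes of 5 compared in ESCs, where 6.001% of all genes were low. Introns alone left 3 of 3 in ESCs and 1 of 1 in NPCs, since most of the genes then had fewer than 20 sites, and 13.9% and 12.9% of all genes were low. The other 21 counts stayed within 1.5 times the reported ones. Of 115 recomputed ratios, 109 stayed within the interval of the reported value, which has no lower limit for genes without a ΔZF1 site, and none changed sign from a low value. With exons alone Rps6ka6 was at -0.40 in NPCs, and without scaling it was at -1.06 in ESCs. Counting a WT site as lost only without a ΔZF1 site within 50 nucleotides lowered the lost share of Rps6ka6 to 65.3% in ESCs and 89.0% in NPCs and that of Llgl1 to 62.2% in ESCs. Exons of basic transcripts moved no exon share beyond its interval. No paired analysis was possible because the lists pool the replicates. Differences smaller than the intervals were not detectable with these site counts, and depth is unknown.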
